A study of Homo sapiens with 12 samples.

Results

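The expression of 10 genes of polyamine and arginine metabolism was followed in T47D-MTVL cells, a derivative of the T47D breast cancer line that carries 1 copy of the MMTV promoter. The 10 genes were SAT1, ODC1, AMD1, SRM, SMS, AZIN1, OAZ1, OAZ2, ASS1 and ARG2. They were taken by gene symbol from the probe annotation of an Affymetrix human Gene ST array, with the probe set of each gene selected on its brightness, the mean log2 intensity over the 12 arrays. Each gene had 1 probe set, so this value chose between none, and the 10 members are 10 of the 21214 probe sets with a gene symbol that were tested. The 4 conditions were siCHD8 with R5020, siCHD8 with EtOH, siCt with R5020 and siCt with EtOH, with 3 arrays each. siCHD8 is an siRNA against CHD8, a chromatin remodelling ATPase, and siCt is a control siRNA. R5020 is a synthetic progestin, given at 10 nM for 6 h, and EtOH is its vehicle. All 4 conditions were transfected, kept without serum for 48 h and belong to the same engineered line, so the vehicle cells are serum-starved cells and not growing ones.

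Polyamines are small positively charged molecules that bind nucleic acids and are needed for growth. Ornithine decarboxylase (ODC1) makes putrescine from ornithine, and spermidine and spermine synthase (SRM and SMS) add aminopropyl groups that S-adenosylmethionine decarboxylase (AMD1) supplies. Antizymes (OAZ1 and OAZ2) bind ornithine decarboxylase and send it to the proteasome, the antizyme inhibitor AZIN1 ties antizyme up, and SAT1 acetylates spermidine and spermine for export or oxidation. Argininosuccinate synthase (ASS1) makes the precursor of arginine from citrulline, and arginase 2 (ARG2) splits arginine in mitochondria to urea and the ornithine that feeds the pathway.

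The data collected were 12 arrays of log2 intensities, with array medians between 4.52 and 4.62. The labels call the arrays biological replicates. The arrays farthest from their condition's mean were siCt EtOH replicate 3 (root mean square deviation 0.202) and siCHD8 EtOH replicate 1 (0.195), against 0.125 to 0.180 for the other arrays. No 2 arrays held the same values. The 8 luminal epithelial markers all had mean log2 intensities of 6.95 to 11.07, and none of the measured fibroblast, blood and endothelial markers reached 6. CHD8 itself stood at 65.3% of its siCt level with R5020 (log2 change -0.62, adjusted p = 0.0627 from limma) and at 66.9% with EtOH (log2 change -0.58, adjusted p = 0.0711 from limma). CHD8 also fell with R5020, by 0.46 on the log2 scale in siCHD8 cells (adjusted p = 0.0258 from limma) and by 0.42 in siCt cells (adjusted p = 0.0349 from limma). The siCHD8 arrays did not overlap the siCt arrays with either treatment, so CHD8 was lower on the arrays labelled siCHD8. The amount did not pass the threshold, which is set on p-values adjusted over all probe sets tested. Apart from these arrays, the study reports lower CHD8 after the siRNA by RT-PCR and by Western blot.

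RefSeq promoter sequences matched 9 of the 10 members, all but AZIN1. The 250 bases before the transcription start are given for the 4 of these 9 with the largest rises under R5020 in siCt cells (SAT1, SRM, AMD1 and ODC1) and for ASS1, which was lower in siCHD8 cells. In assembly GRCh38.p14 they lie at chrX:23782923-23783172 on the plus strand for SAT1, chr1:11060019-11060268 on the minus strand for SRM, chr6:110874535-110874784 on the plus strand for AMD1, chr2:10448328-10448577 on the minus strand for ODC1 and chr9:130444457-130444706 on the plus strand for ASS1. They are written 5′ to 3′ on the gene's own strand. Capitals mark every CACGTG (the E-box bound by MYC and MAX), CCAAT and GGGCGG (the GC box of SP1) on either strand, the reverse complements of the last 2 being ATTGG and CCGCCC. No 2 of these 3 motifs overlap in the marked stretches.
SAT1: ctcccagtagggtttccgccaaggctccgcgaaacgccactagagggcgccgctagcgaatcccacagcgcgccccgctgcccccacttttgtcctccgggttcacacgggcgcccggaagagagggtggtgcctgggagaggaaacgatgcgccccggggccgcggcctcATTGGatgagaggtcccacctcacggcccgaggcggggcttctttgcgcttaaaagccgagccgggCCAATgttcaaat
SRM: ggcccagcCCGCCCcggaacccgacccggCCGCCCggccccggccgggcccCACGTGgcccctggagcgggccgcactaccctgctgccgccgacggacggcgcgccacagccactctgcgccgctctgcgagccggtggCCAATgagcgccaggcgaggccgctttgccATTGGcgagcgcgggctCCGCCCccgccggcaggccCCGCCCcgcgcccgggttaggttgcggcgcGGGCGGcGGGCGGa
AMD1: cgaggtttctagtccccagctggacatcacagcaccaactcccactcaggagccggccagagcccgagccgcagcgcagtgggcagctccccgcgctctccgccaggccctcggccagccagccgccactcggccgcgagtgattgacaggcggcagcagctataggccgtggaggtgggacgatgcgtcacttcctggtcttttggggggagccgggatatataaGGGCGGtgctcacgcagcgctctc
ODC1: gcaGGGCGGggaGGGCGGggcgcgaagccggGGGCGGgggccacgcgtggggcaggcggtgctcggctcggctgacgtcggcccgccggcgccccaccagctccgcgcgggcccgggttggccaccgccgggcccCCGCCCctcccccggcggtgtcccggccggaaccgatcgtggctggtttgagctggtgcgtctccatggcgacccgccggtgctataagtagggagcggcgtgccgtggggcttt
ASS1: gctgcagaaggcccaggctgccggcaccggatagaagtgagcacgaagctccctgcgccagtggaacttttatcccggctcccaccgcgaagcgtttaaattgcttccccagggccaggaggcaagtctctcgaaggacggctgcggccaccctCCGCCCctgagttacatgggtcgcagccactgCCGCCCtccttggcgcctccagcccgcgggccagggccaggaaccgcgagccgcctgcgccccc

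SRM was the only one of the 9 with a CACGTG, 199 bases before its start, and 6.34% of the 35116 promoter windows of the same length hold that motif. CCAAT was in 5 of the 9 windows, against 32% of all windows, and the SAT1 window held it at 79 and 13 bases before the start. GGGCGG was in 8 of the 9 windows, all but that of SAT1, against 42.6% of all windows. The hexamer TGTTCT, an exact progesterone and glucocorticoid receptor half-site, was in 0 of the 9 windows, and 12.4% of all windows hold it. The looser receptor palindrome ACANNNTGT was also in 0 of the 9, against 4.61% of all windows. The other motifs searched were CTGTNC (in the OAZ2 and ARG2 windows, against 41.7% of all), TGACGTCA (in that of ARG2, against 1.65%) and TATAAA (in 0 of the 9, against 10.7%). All motifs were searched on both strands by the exact letters given, with N for any base, so near matches were not counted. A match is only a run of letters, and these windows do not cover enhancers or any part of the gene after its start, introns included.

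Under R5020 the breakdown gene SAT1, the synthesis genes SRM and AMD1 and the antizyme inhibitor gene AZIN1 rose in both siRNA backgrounds, ODC1 and SMS rose in siCt cells, and the antizyme genes, ASS1 and ARG2 did not pass the test. In siCHD8 cells 4 of the 10 members rose (SAT1, SRM, AMD1 and AZIN1) and 0 fell, at an adjusted p under 0.05 from limma. In siCt cells 6 rose (the same 4, ODC1 and SMS) and 0 fell. The members' shares of rises lay above those of all probe sets in both backgrounds. The members were chosen with earlier results of these data known, so this is a description and not a test. Their mean intensities lay at percentiles 59.3 (ARG2) to 99.5 (OAZ1) of the probe sets tested. Over all probe sets tested, 6.04% rose and 5.43% fell in siCHD8 cells, and 8.10% rose and 6.00% fell in siCt cells. The balance of these calls moved with the scaling: 57.5% of the calls in siCt cells were rises, against 69.4% after median centring and 53.2% after a further quantile normalization. The median log2 change of the 10 members was 0.32 in siCHD8 cells and 0.51 in siCt cells, beside -0.02 and -0.05 for all probe sets in these cells. In siCHD8 cells 3 members (SAT1, SRM and AMD1) and in siCt cells 4 (these and AZIN1) also passed an adjusted p of 0.01 with a fold over 1.5, limits that 5.60% and 6.55% of all probe sets passed. RNA came from whole cultures, so more cells with a transcript and more transcript per cell cannot be told apart.

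**Figure D1:**
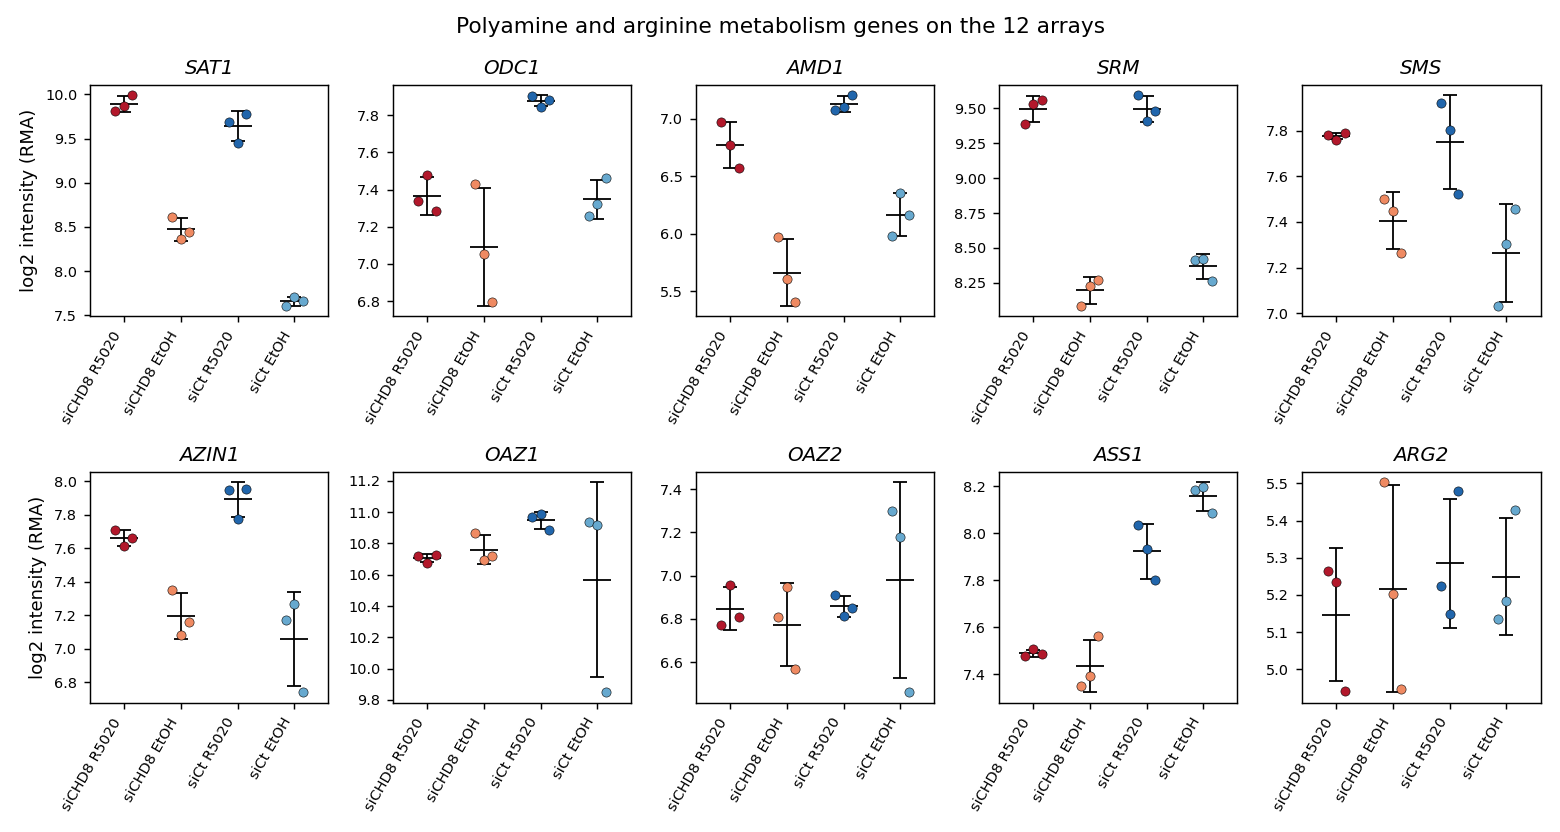
Log2 intensity (RMA) of each of the 10 genes on the 12 arrays, with siCHD8 R5020, siCHD8 EtOH, siCt R5020 and siCt EtOH from left to right; points are arrays, and bars give the mean and SD of 3 arrays. SAT1, SRM and AMD1 have every R5020 array above every EtOH array in both siRNA backgrounds, and siCt EtOH replicate 3 lies apart for OAZ1 (9.85) and OAZ2 (6.46).

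SAT1, the acetyltransferase that starts polyamine breakdown, had the largest rise of the 10 in both backgrounds. Its log2 intensities in siCHD8 cells were 9.82, 9.87 and 9.99 with R5020 and 8.61, 8.36 and 8.44 with EtOH. In siCt cells they were 9.69, 9.45 and 9.78 with R5020 and 7.61, 7.71 and 7.66 with EtOH. The R5020 arrays lay more than 1 log2 unit above the EtOH arrays in each background, and the siCt EtOH arrays were the lowest of the 12. The log2 change was 1.42 ± 0.11 in siCHD8 cells (SE, 2.68-fold, adjusted p = 5.45e-07) and 1.98 ± 0.11 in siCt cells (SE, 3.94-fold, adjusted p = 1.77e-08), both from limma. Both calls were kept in every alternative run.

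Among the 4 biosynthetic enzymes, SRM and AMD1 rose in both backgrounds, and ODC1 and SMS rose in siCt cells. SRM, spermidine synthase, had 9.39, 9.53 and 9.56 in siCHD8 cells with R5020 and 8.09, 8.23 and 8.27 with EtOH. In siCt cells SRM had 9.59, 9.41 and 9.48 with R5020 and 8.42, 8.42 and 8.27 with EtOH. The R5020 means were 9.49 in both backgrounds, and every R5020 array lay above every EtOH array. SRM rose by 1.30 ± 0.10 in siCHD8 cells (SE, log2, 2.46-fold, limma adjusted p = 5.99e-07) and by 1.13 ± 0.10 in siCt cells (SE, log2, 2.18-fold, limma adjusted p = 2.3e-06).

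AMD1, which supplies the aminopropyl donor, had 6.97, 6.78 and 6.57 in siCHD8 cells with R5020 and 5.98, 5.61 and 5.41 with EtOH. In siCt cells AMD1 had 7.07, 7.10 and 7.20 with R5020 and 5.98, 6.36 and 6.16 with EtOH. Both pairs of conditions were apart, and the siCHD8 arrays lay below the siCt arrays of the same treatment, with a nearest value of 5.98 on both sides for EtOH. AMD1 rose by 1.11 ± 0.15 in siCHD8 cells (SE, log2, 2.16-fold, limma adjusted p = 0.000115) and by 0.96 ± 0.15 in siCt cells (SE, log2, 1.94-fold, limma adjusted p = 0.000367). The calls of SRM and AMD1 were kept in every alternative run.

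ODC1, the first enzyme of the pathway, had 7.34, 7.48 and 7.28 in siCHD8 cells with R5020 and 7.43, 7.05 and 6.80 with EtOH, which overlap. In siCt cells ODC1 had 7.90, 7.85 and 7.88 with R5020 and 7.26, 7.32 and 7.46 with EtOH, which do not overlap. ODC1 rose by 0.53 ± 0.14 in siCt cells (SE, log2, 1.44-fold, limma adjusted p = 0.0172), and its log2 change in siCHD8 cells was 0.27 ± 0.14 (SE, limma adjusted p = 0.266). The ODC1 call in siCt cells was lost without siCt EtOH replicate 1 (limma adjusted p = 0.0637), siCt R5020 replicate 1 (0.0587) or siCt R5020 replicate 3 (0.0546). Without siCHD8 EtOH replicate 1, the highest of its 3 EtOH arrays, ODC1 passed in siCHD8 cells as well (log2 change 0.44, limma adjusted p = 0.0279).

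SMS, spermine synthase, had 7.78, 7.76 and 7.79 in siCHD8 cells with R5020 and 7.50, 7.45 and 7.26 with EtOH. In siCt cells SMS had 7.92, 7.80 and 7.52 with R5020 and 7.03, 7.31 and 7.46 with EtOH. Neither pair overlapped, but the gap in siCt cells was only between 7.52 and 7.46. SMS rose by 0.48 ± 0.13 in siCt cells (SE, log2, 1.40-fold, limma adjusted p = 0.0221), and its log2 change in siCHD8 cells was 0.37 ± 0.13 (SE, limma adjusted p = 0.0904), which passed with dim probe sets left out (0.0412). The SMS call in siCt cells was lost without siCt EtOH replicate 1 (limma adjusted p = 0.103), siCt R5020 replicate 1 (0.109) or siCt R5020 replicate 2 (0.0720), with all probe sets tested (0.0512) and with the siCt arrays fitted alone (0.0605).

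Of the antizyme system, the inhibitor gene AZIN1 rose and the antizyme genes OAZ1 and OAZ2 did not pass the test, and no test compared the genes with each other. AZIN1, which frees ornithine decarboxylase from antizyme, had 7.71, 7.62 and 7.66 in siCHD8 cells with R5020 and 7.35, 7.08 and 7.16 with EtOH. In siCt cells AZIN1 had 7.95, 7.77 and 7.95 with R5020 and 7.17, 7.27 and 6.74 with EtOH. The R5020 arrays were higher without overlap in both backgrounds. AZIN1 rose by 0.47 ± 0.13 in siCHD8 cells (SE, log2, 1.38-fold, limma adjusted p = 0.0341) and by 0.83 ± 0.13 in siCt cells (SE, log2, 1.78-fold, limma adjusted p = 0.000467). The call in siCHD8 cells was lost without siCHD8 EtOH replicate 2 (limma adjusted p = 0.122) or 3 (0.0836), without siCHD8 R5020 replicate 1 (0.109), 2 (0.0753) or 3 (0.0941), and with all probe sets tested (0.0764). The call in siCt cells was kept in every alternative run, with a log2 change of 0.67 without siCt EtOH replicate 3, its lowest array.

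OAZ1, the main antizyme, had 10.72, 10.68 and 10.72 in siCHD8 cells with R5020 and 10.86, 10.69 and 10.72 with EtOH. In siCt cells OAZ1 had 10.97, 10.99 and 10.89 with R5020 and 10.94, 10.92 and 9.85 with EtOH. The last value, of siCt EtOH replicate 3, stood well below the other 11 and pulled down the mean of its condition. The log2 change of OAZ1 was -0.05 ± 0.21 in siCHD8 cells (SE, limma adjusted p = 0.93) and 0.38 ± 0.21 in siCt cells (SE, limma adjusted p = 0.257), and the siCt value was 0.02 without that array (limma adjusted p = 0.933).

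OAZ2, a second antizyme, had 6.77, 6.96 and 6.81 in siCHD8 cells with R5020 and 6.81, 6.95 and 6.57 with EtOH. In siCt cells OAZ2 had 6.91, 6.81 and 6.85 with R5020 and 7.30, 7.18 and 6.46 with EtOH, and siCt EtOH replicate 3 was again the low array. The log2 change was 0.07 ± 0.18 in siCHD8 cells (SE, limma adjusted p = 0.879) and -0.12 ± 0.18 in siCt cells (SE, limma adjusted p = 0.699). Without siCt EtOH replicate 3 the OAZ2 change in siCt cells was -0.38 (limma adjusted p = 0.0693).

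The 2 genes of arginine metabolism did not pass the test for R5020. ASS1, which commits citrulline to arginine synthesis, had 7.48, 7.51 and 7.48 in siCHD8 cells with R5020 and 7.35, 7.39 and 7.56 with EtOH. In siCt cells ASS1 had 8.04, 7.93 and 7.80 with R5020 and 8.18, 8.20 and 8.09 with EtOH, so the siCt R5020 arrays all lay below the siCt EtOH arrays. The log2 change was 0.05 ± 0.10 in siCHD8 cells (SE, limma adjusted p = 0.838) and -0.23 ± 0.10 in siCt cells (SE, limma adjusted p = 0.155). With quantile normalization over the 12 arrays the siCt change of ASS1 passed (log2 change -0.34, limma adjusted p = 0.0483).

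ARG2, mitochondrial arginase, had 5.26, 5.23 and 4.94 in siCHD8 cells with R5020 and 5.50, 5.20 and 4.95 with EtOH. In siCt cells ARG2 had 5.22, 5.15 and 5.48 with R5020 and 5.13, 5.18 and 5.43 with EtOH. Its 4 sets of arrays overlapped throughout, with log2 changes of -0.07 ± 0.15 in siCHD8 cells (SE, limma adjusted p = 0.861) and 0.04 ± 0.15 in siCt cells (SE, limma adjusted p = 0.905). Counted by overlap alone, 5 of the 10 members in siCHD8 cells and 7 in siCt cells had R5020 arrays apart from the EtOH arrays, against 27.2% and 33.9% of all probe sets in those cells.

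**Figure D2:**
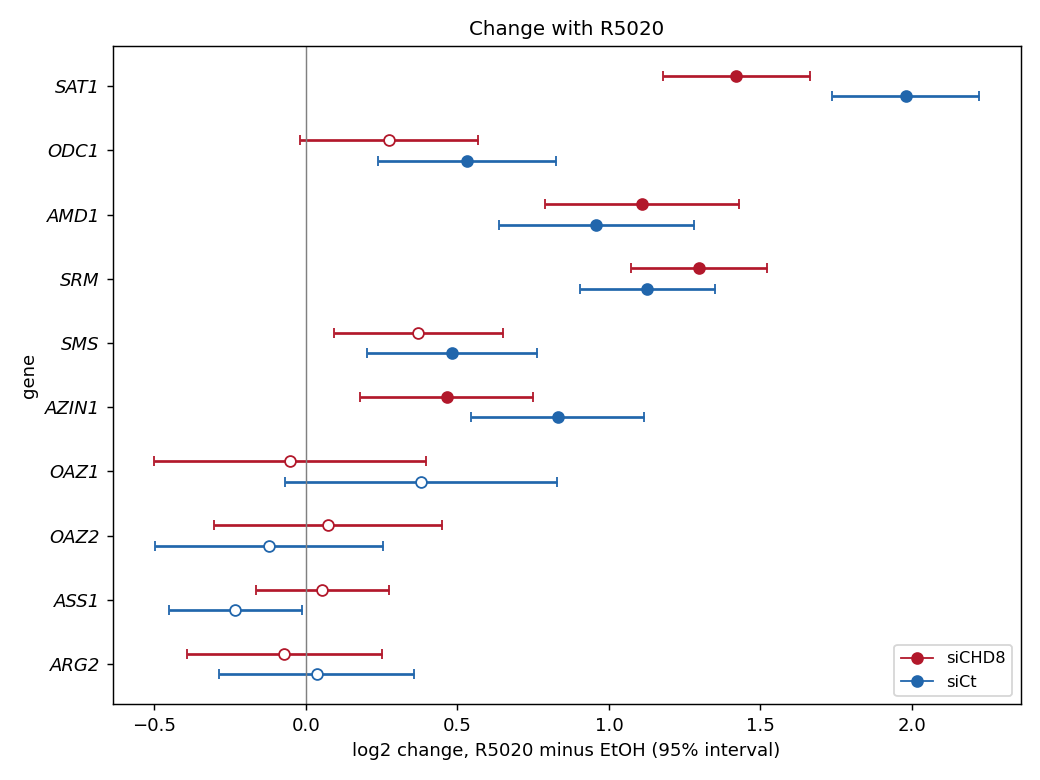
Log2 change, R5020 minus EtOH, of each gene with its 95% interval from limma, in siCHD8 cells and siCt cells (3 arrays per condition); filled points passed an adjusted p under 0.05 and open points did not. SAT1, SRM and AMD1 lie furthest to the right in both backgrounds, and the SAT1 point is at 1.42 in siCHD8 cells and at 1.98 in siCt cells.

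Whether knockdown of CHD8 altered these responses was asked by the difference of the log2 changes, siCHD8 minus siCt. None of the 10 members passed limma's test of the difference at an adjusted p under 0.05, and 0 of the 21214 probe sets (0%) did. At an unadjusted p under 0.05 the count was 1 of 10 members, SAT1, and 9.56% of all probe sets. In simulated arrays with 200 changed probe sets, the adjusted test of the difference found 4.48% of log2 changes of 0.5 and 67.2% of changes of 1. The adjusted cutoff grows stricter with fewer changed probe sets, and 0 passed in the real arrays. These shares may therefore be too high for the real arrays. Not passing it therefore does not show that the responses were equal. The SAT1 response was smaller by 0.56 in siCHD8 cells (log2 difference -0.56, 95% interval -0.90 to -0.22, adjusted p = 0.49 from limma). Its EtOH arrays were 0.81 higher in siCHD8 cells than in siCt cells and its R5020 arrays 0.25 higher. The difference of responses is by construction the second of these values minus the first.

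The differences of the other 9 members had 95% intervals that included 0. For AMD1 the difference was 0.15 (-0.30 to 0.60) and for SRM 0.17 (-0.15 to 0.49), so responses of about the same size in both backgrounds and moderate differences are both within these intervals. The difference was -0.37 for AZIN1 (-0.77 to 0.04), -0.26 for ODC1 (-0.67 to 0.16) and -0.11 for SMS (-0.51 to 0.28). It was 0.29 for ASS1 (-0.02 to 0.60), -0.43 for OAZ1 (-1.07 to 0.20), 0.19 for OAZ2 (-0.34 to 0.72) and -0.11 for ARG2 (-0.56 to 0.35). Single arrays moved several of these values: leaving out 1 array in turn gave -0.40 to -0.09 for ODC1, 0.02 to 0.31 for AMD1, -0.47 to -0.21 for AZIN1, -0.62 to -0.07 for OAZ1 and 0.03 to 0.45 for OAZ2, and none of them passed. The study also sorted hormone-responsive genes by the ratio of the folds, siCHD8 over siCt, with limits of 1.2 and 0.8 and no test. The scale of that ratio is not stated, and linear folds were divided here. Of the 4 members past the fold limits in siCt cells, SAT1 (ratio 0.678) and AZIN1 (ratio 0.776) lay below 0.8, and SRM (1.13) and AMD1 (1.11) lay between the limits. That is 2 of 4, where 35.0% of the 1390 probe sets past those limits lay outside. The AZIN1 ratio was 0.867, between the limits, without siCt EtOH replicate 3.

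Knockdown alone moved 2 of the 10 members in vehicle-treated cells, SAT1 upwards and ASS1 downwards, and with R5020 no member passed the test. With R5020 the count was 0 of 10, beside 0.189% of all probe sets, and 4 members had an unadjusted p under 0.05 from limma (13.9% of all probe sets). With EtOH 1 member rose and 1 fell, beside 0.113% of all probe sets that rose, 0.179% that fell and 0.292% called in either direction. Both members also passed the adjusted p of 0.01 and the fold of 1.5, which 0.0471% of all probe sets did. By overlap alone, 6 members with R5020 had siCHD8 arrays apart from siCt arrays, 1 higher and 5 lower, against 27.6% of all probe sets. With EtOH the count was 3, 1 higher and 2 lower, against 13.7%.

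SAT1 was 0.25 higher in siCHD8 cells with R5020 (log2, 95% interval 0.01 to 0.49, limma adjusted p = 0.344) and 0.81 higher with EtOH (log2, 0.57 to 1.05, 1.75-fold, limma adjusted p = 0.00929). With EtOH the lowest siCHD8 array, at 8.36, lay well above the highest siCt array, at 7.71. ASS1 was 0.43 lower with R5020 (log2 difference -0.43, -0.65 to -0.21, limma adjusted p = 0.0972), and with EtOH it stood at 60.7% of its siCt level (log2 difference -0.72, -0.94 to -0.50, limma adjusted p = 0.00984). The 6 siCHD8 arrays of ASS1 lay between 7.35 and 7.56 and the 6 siCt arrays between 7.80 and 8.20, with no overlap across either treatment. Both vehicle calls were lost without siCt EtOH replicate 1 (limma adjusted p = 0.0518 for SAT1 and 0.0554 for ASS1) and with the 6 vehicle arrays fitted alone (0.127 for SAT1 and 0.178 for ASS1), where 0 probe sets were called. That of SAT1 was also lost when both outlying vehicle arrays (replicate 3 of siCt and replicate 1 of siCHD8) were left out (limma adjusted p = 0.0522). The log2 change itself stayed between 0.74 and 0.87 for SAT1 and between -0.78 and -0.68 for ASS1 over the 23 alternatives.

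**Figure D3:**
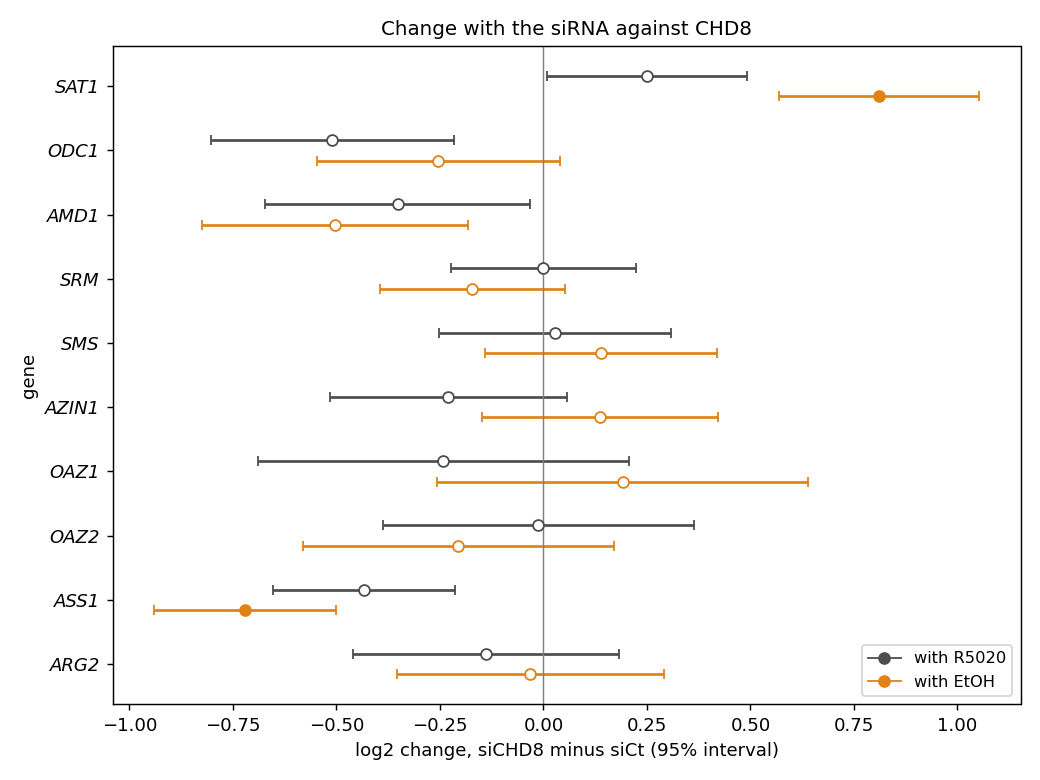
Log2 change, siCHD8 minus siCt, of each gene with its 95% interval from limma, with R5020 and with EtOH (3 arrays per condition); filled points passed an adjusted p under 0.05 and open points did not. The filled points are SAT1 (0.81) and ASS1 (-0.72) with EtOH, and no point is filled with R5020.

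ODC1, AMD1, AZIN1 and OAZ1 also had lower values in siCHD8 cells with R5020, without overlap and without passing the test. ODC1 stood at 70.2% of its siCt level (log2 difference -0.51, 95% interval -0.80 to -0.22, limma adjusted p = 0.134), with siCHD8 arrays of 7.34, 7.48 and 7.28 against siCt arrays of 7.90, 7.85 and 7.88. With EtOH the log2 difference of ODC1 was -0.25 (-0.55 to 0.04, limma adjusted p = 0.492). AMD1 stood at 78.4% with R5020 (log2 difference -0.35, limma adjusted p = 0.315), and its log2 difference with EtOH was -0.50 (-0.82 to -0.18, limma adjusted p = 0.177). AZIN1 had a log2 difference of -0.23 with R5020 (limma adjusted p = 0.46) and 0.14 with EtOH, and the EtOH value was -0.02 without siCt EtOH replicate 3. For OAZ1 the log2 difference was -0.24 with R5020 (limma adjusted p = 0.635) and 0.19 with EtOH, and the EtOH value was -0.17 without that array. SRM and SMS differed by 0.00 and 0.03 with R5020, and by -0.17 and 0.14 with EtOH. ODC1 with R5020 passed when arrays were weighted (limma adjusted p = 0.0155), when the R5020 arrays were fitted alone (0.0415) and when siCt EtOH replicate 3 and siCHD8 EtOH replicate 1 were both left out (0.0345). ASS1 with R5020 passed with dim probe sets left out (limma adjusted p = 0.0364), with a trended robust prior (0.0424), with array weights (0.012) and without those 2 arrays (0.0471).

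Around these 10 genes, 61 further genes of the pathway were looked up in 10 lists, and 56 had a probe set of their own, the brightest being used where there were several. In siCHD8 cells 10 of the 56 rose with R5020 and 2 fell, beside 6.04% of all probe sets that rose and 5.43% that fell. In siCt cells 10 rose and 1 fell, beside 8.10% of all probe sets that rose and 6.00% that fell. Called in either direction were 11.5% of all probe sets in siCHD8 cells and 14.1% in siCt cells. The lists were chosen with earlier results of these data known, so these counts are descriptions. The median log2 change over the 56 was 0.10 in siCHD8 cells and -0.01 in siCt cells. In the difference of responses and in both knockdown comparisons 0 of the 56 passed limma's test, with 10 of them at an unadjusted p under 0.05 for the difference (9.56% of all probe sets), 8 for knockdown with R5020 (13.9% of all) and 14 for knockdown with EtOH (12.1% of all).

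GLUL and SLC25A15 had the largest changes of these genes in both backgrounds. SLC25A15 was the 1 of 11 genes of the arginine, citrulline and urea cycle list called in each background. GLUL, glutamine synthetase, had 10.35, 10.21 and 10.33 in siCHD8 cells with R5020 against 8.69, 8.57 and 8.37 with EtOH, and 10.26, 10.31 and 10.40 in siCt cells with R5020 against 8.79, 8.64 and 8.62 with EtOH. GLUL rose by 1.76 ± 0.11 in siCHD8 cells (SE, log2, limma adjusted p = 4.5e-08) and by 1.64 ± 0.11 in siCt cells (SE, log2, limma adjusted p = 7.74e-08). SLC25A15, the mitochondrial ornithine carrier, had 6.19, 6.22 and 5.90 in siCHD8 cells with R5020 against 4.90, 4.29 and 4.44 with EtOH, and 6.37, 6.25 and 6.31 in siCt cells with R5020 against 4.32, 4.72 and 4.67 with EtOH. These values did not overlap in either background, and SLC25A15 rose by 1.56 ± 0.16 in siCHD8 cells (SE, log2, limma adjusted p = 5.63e-06) and by 1.74 ± 0.16 in siCt cells (SE, log2, limma adjusted p = 1.6e-06).

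MAT2A, which makes S-adenosylmethionine, had 10.27, 10.37 and 10.15 in siCHD8 cells with R5020 against 9.28, 9.30 and 9.41 with EtOH, and 10.42, 10.34 and 10.47 in siCt cells with R5020 against 9.61, 9.77 and 8.52 with EtOH. The lowest value again came from siCt EtOH replicate 3. MAT2A rose by 0.94 ± 0.23 in siCHD8 cells (SE, log2, limma adjusted p = 0.013) and by 1.11 ± 0.23 in siCt cells (SE, log2, limma adjusted p = 0.00347). Without siCt EtOH replicate 3 the siCt change of MAT2A was 0.72, still past the threshold, and without siCHD8 R5020 replicate 2 the siCHD8 call was lost (limma adjusted p = 0.0545). SLC7A1, the main importer of arginine, had 6.81, 6.73 and 6.91 in siCHD8 cells with R5020 against 6.19, 5.92 and 6.02 with EtOH, and 7.14, 7.20 and 7.0 in siCt cells with R5020 against 6.49, 6.50 and 6.76 with EtOH. SLC7A1 rose by 0.77 ± 0.11 in siCHD8 cells (SE, log2, limma adjusted p = 0.00029) and by 0.53 ± 0.11 in siCt cells (SE, log2, limma adjusted p = 0.00491), and it was the 1 of 5 cationic amino acid transporters called in each background.

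**Figure D4:**
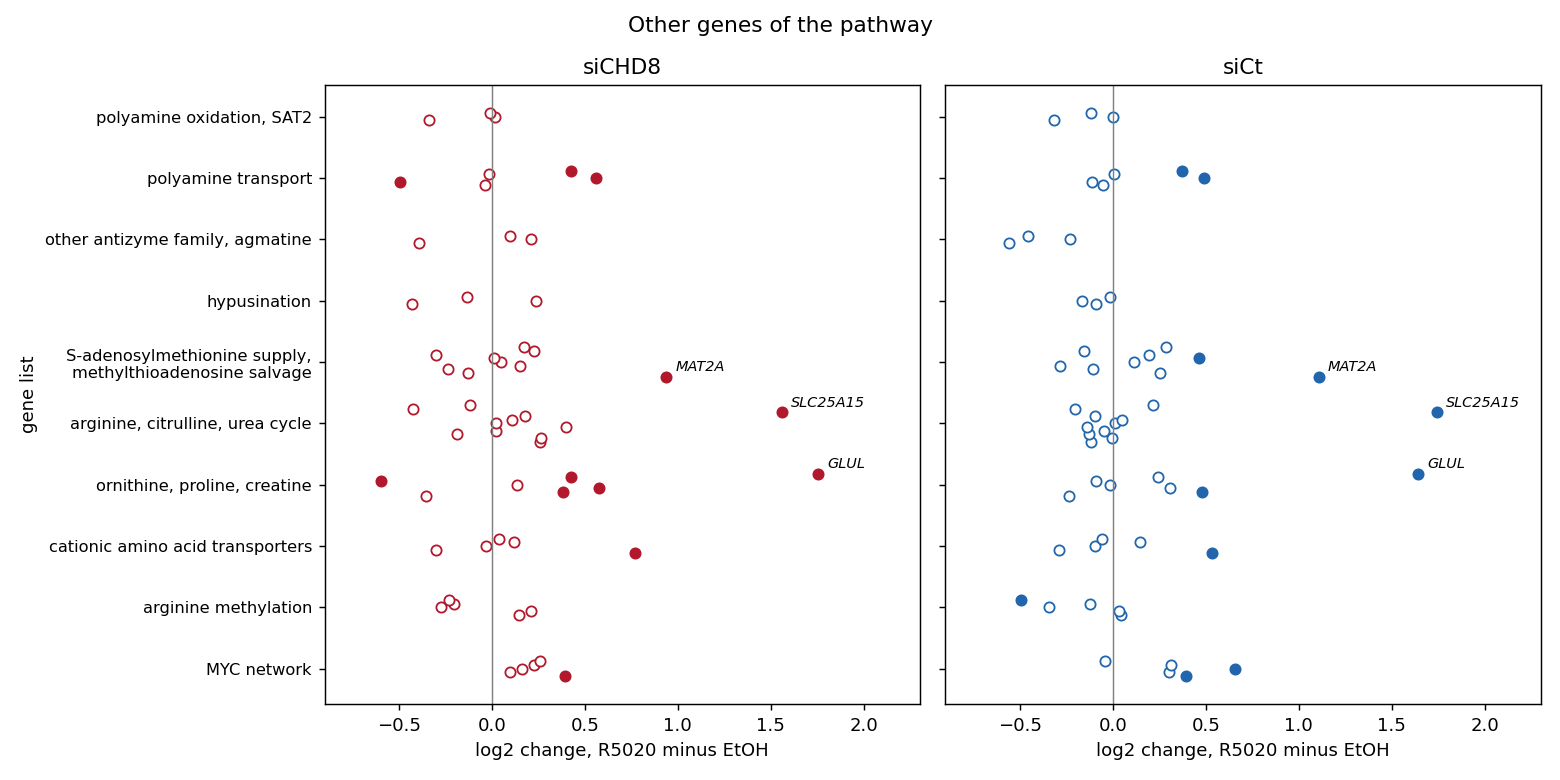
Log2 change, R5020 minus EtOH, of the 56 measured genes of 10 pathway lists in siCHD8 cells (left) and siCt cells (right); each point is a gene, filled where the adjusted p from limma was under 0.05. GLUL, SLC25A15 and MAT2A stand out to the right in both panels, and the genes of polyamine oxidation, hypusination and the other antizymes have no filled point.

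Of 5 measured polyamine transport genes, 2 rose in each background, namely SLC18B1, a vesicular polyamine transporter (0.56 in siCHD8 cells and 0.49 in siCt cells, log2, limma adjusted p = 0.0163 and 0.0309), and SLC3A2, the heavy chain of several amino acid exchangers (0.43 in siCHD8 cells and 0.37 in siCt cells, limma adjusted p = 0.0276 and 0.0484). The SLC18B1 probe set was dim, with a mean log2 intensity of 4.04. ATP13A3, a polyamine-transporting ATPase, fell by 0.49 on the log2 scale in siCHD8 cells (limma adjusted p = 0.0174), with a change of -0.11 in siCt cells that was -0.26 without siCt EtOH replicate 3 (limma adjusted p = 0.148). Of 7 genes of ornithine, proline and creatine metabolism, 4 rose and 1 fell in siCHD8 cells and 2 rose in siCt cells. ALDH18A1, which starts proline and ornithine synthesis from glutamate, rose by 0.38 in siCHD8 cells and by 0.48 in siCt cells (limma adjusted p = 0.0439 and 0.0101). The proline synthesis gene PYCR1 (0.57, limma adjusted p = 0.00493) and the creatine synthesis gene GAMT (0.42, limma adjusted p = 0.0197) rose in siCHD8 cells, with values of 0.31 and 0.24 in siCt cells that did not pass. GATM, which starts creatine synthesis from arginine and was named after its values were seen, fell by 0.60 in siCHD8 cells (limma adjusted p = 0.00978), with a change of -0.09 in siCt cells (-0.22 without siCt EtOH replicate 3). Its siCHD8 minus siCt difference with EtOH was 0.68 (limma adjusted p = 0.0561).

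In the list of S-adenosylmethionine supply and salvage, 1 of 9 genes rose in siCHD8 cells (MAT2A) and 2 in siCt cells. The second was ENOPH1 of methylthioadenosine salvage, with a log2 change of 0.01 in siCHD8 cells and 0.46 in siCt cells (limma adjusted p = 0.016 in siCt cells). DDAH2, which degrades methylarginines, had a change of -0.23 in siCHD8 cells and fell by 0.49 in siCt cells (limma adjusted p = 0.0111). MYC, a known activator of ODC1, rose by 0.39 on the log2 scale in each background (limma adjusted p = 0.0255 in siCHD8 cells and 0.0227 in siCt cells). Its antagonist MXD1 had a change of 0.16 in siCHD8 cells and rose by 0.66 in siCt cells (limma adjusted p = 0.00393). The siCHD8 minus siCt difference of MXD1 was 0.18 with R5020 (limma adjusted p = 0.586) and 0.68 with EtOH (0.0549). The EtOH difference was 0.59 without siCt EtOH replicate 3. None of the 3 genes of polyamine oxidation and SAT2, the 3 other antizyme and agmatine genes and the 3 measured hypusination genes passed in either background. Of the calls in these smaller groups, those of PYCR1, of ALDH18A1 in siCt cells and of MXD1 were kept with each single array left out. The DDAH2 call was lost without siCt R5020 replicate 3 (limma adjusted p = 0.0661), and that of ENOPH1 without this array or siCt EtOH replicate 2 (up to 0.0857). The calls of SLC18B1, SLC3A2, ATP13A3, GAMT and MYC, and that of ALDH18A1 in siCHD8 cells, were each lost when any of 3 or more single arrays was left out, 9 of the 12 for SLC3A2 in siCt cells (up to 0.184). For GATM only siCt EtOH replicate 3 was left out in turn, and its call was kept.

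Genes with a 12-array pattern most like those of SAT1 and ASS1 were sought among 5718 probe sets. These had 1 gene symbol and a mean log2 intensity of at least 6. Likeness was the root mean square difference of values centred on each probe set's mean. Nearest to SAT1 were RPS6KA5 (0.206), PRR15L (0.216) and PRKAB2 (0.253). Their log2 changes with R5020 were 1.65, 1.49 and 1.68 in siCHD8 cells and 2.03, 1.75 and 1.48 in siCt cells. Their siCHD8 minus siCt differences with EtOH were 0.46, 0.39 and 0.21 (limma adjusted p = 0.208, 0.263 and 0.538), against 0.81 for SAT1 itself. Nearest to ASS1 were LGALS1 (0.0899), SUMO3 (0.110) and LYPLA2 (0.120). Their siCHD8 minus siCt differences with EtOH were -0.72, -0.51 and -0.60 (limma adjusted p = 0.0213, 0.0421 and 0.0249), against -0.72 for ASS1 itself. These genes were picked for their likeness to ASS1, so their p-values are not a separate result. These distances rest on 12 arrays of 4 conditions and are descriptions without a test.

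Pseudogenes in RefSeq were counted where their name is the gene's symbol followed by P, with or without a number. They number 14 for ASS1, 4 for AMD1, 3 for SRM and 1 each for SMS, OAZ1 and ARG2, so probes of these genes may also bind transcripts of copies. None is named in this form for SAT1, ODC1, AZIN1 or OAZ2, and copies under other names were not sought.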

How the data were processed

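Total RNA was measured on 12 arrays of the GeneChip human Gene ST type, 3 for each of 4 conditions, which were taken from the sample labels. The table deposited by the authors holds log2 intensities, made by RMA, which subtracts background, equalizes the distributions of the arrays by quantiles and summarizes the probes of a probe set. The RMA version is not given in the sources used. Of 33297 probe sets, the 12083 without a gene symbol in the platform annotation were left out, and 21214 were tested. Quantile normalization removes a shift shared by most genes, so every change is relative to the other transcripts.

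Condition means were fitted to all arrays with limma 3.58.1 (lmFit and eBayes, R 4.3.3). P-values were adjusted by Benjamini and Hochberg's method over all probe sets tested, with a threshold of 0.05, and the procedure was tested on simulated data. The study words its limits as an FDR of 0.01 in its results and as a p of 0.01 in its methods, with a fold of 1.5. They were applied as an adjusted p of 0.01 and that fold. Errors are the SE of this fit. With 3 arrays per condition the number of arrays limits the precision, and an exact permutation test of 3 against 3 cannot go below p = 0.10. The labels call the replicates biological but do not mention separate cultures, so p-values measure the spread between these samples, which may be technical.

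Alternatives were a second quantile normalization, centring each array on its median, dropping dim probe sets (mean log2 under 5), testing every probe set, keeping 1 probe set for each gene, a trended robust prior, array weights, fitting only the conditions compared, a block for the replicate number, the study's limits, and leaving out each array. A run without the 2 vehicle arrays farthest from their condition means was added after seeing the data. Replicate numbers were checked for pairing by the correlation of deviations from condition means.

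Besides the 10 members, the text names CHD8, up to 4 genes of each pathway list (largest siCt hormone change among genes called in any comparison) and the 3 genes most like the members with the largest rise and fall in siCt. The members and lists were chosen with earlier results of these data known. Promoters and pseudogenes come from RefSeq tables of GRCh38.p14. Matplotlib 3.10.9 and pandas 2.3.3 under Python 3.11.15 served for plotting.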

Additional observations from a re-analysis of the deposited data

Results flagged for a closer look

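For 5 genes the arrays of one background or treatment all lay on one side of the mean they were set against, while those of the other all lay on the opposite side. None of these differences of responses, siCHD8 minus siCt, passed limma's test. For ASS1 the difference was 0.29 (limma adjusted p = 0.555), with R5020 changes of 0.05 in siCHD8 cells and -0.23 in siCt cells. For AZIN1 it was -0.37 (limma adjusted p = 0.566), with knockdown changes of -0.23 with R5020 and 0.14 with EtOH. For OAZ1 it was -0.43 (limma adjusted p = 0.638), with R5020 changes of -0.05 in siCHD8 cells and 0.38 in siCt cells and knockdown changes of -0.24 with R5020 and 0.19 with EtOH. Without siCt EtOH replicate 3 the difference was -0.21 for AZIN1 and -0.07 for OAZ1, and the knockdown changes with EtOH were -0.02 for AZIN1 and -0.17 for OAZ1. For ATP13A3 it was -0.38 (limma adjusted p = 0.522), with knockdown changes of -0.22 with R5020 and 0.17 with EtOH. Without siCt EtOH replicate 3 the ATP13A3 difference was -0.23 and its EtOH change 0.02, with 1 of 3 siCHD8 EtOH arrays above the siCt mean, so the opposite directions were not kept. For ENOPH1 it was -0.45 (limma adjusted p = 0.498), with knockdown changes of -0.16 with R5020 and 0.28 with EtOH.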

How the results depend on the processing

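Rerunning the comparisons under 23 alternatives (22 for the difference of responses, which needs all conditions) left the direction and call of the hormone responses of SAT1, SRM and AMD1, and of AZIN1 in siCt cells, as reported. At the limits of the study (adjusted p 0.01, fold 1.5) 1390 probe sets were called for R5020 in siCt cells, 1189 in siCHD8 cells, 2 for knockdown with R5020 and 10 with EtOH. For knockdown with R5020 (40 probe sets as reported, 0 members) 26 probe sets were called with a further quantile normalization, 167 with dim probe sets left out (1 member), 2 with all probe sets tested, 63 with 1 probe set per gene, 121 with a trended and robust variance (1 member), 916 with array weights (2 members), 204 with the compared conditions alone (1 member) and 280 without the vehicle arrays siCt 3 and siCHD8 1 (2 members). For knockdown with EtOH (62 probe sets, 2 members) the counts in the same settings were 94 with quantile normalization, 236 without dim probe sets, 15 with all of them tested, 169 with the trended variance, 32 with array weights, 0 with the compared conditions alone (0 members) and 37 without the 2 arrays (1 member). With fewer arrays or genes the number tested or the spread estimate changes by construction; for the other settings the cause was not tested. Median centring changed no call of a member. Of the calls for knockdown with R5020, 17.5% were higher as reported and 30.8% after quantile normalization. Leaving out single arrays gave 0 to 1 probe sets for the difference, 1 to 105 for knockdown with R5020, and 12 to 53 with EtOH, with 0 to 2 members.

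Of 18 pairs of arrays with the same replicate number, 4 had a correlation of deviations over 0.1 (range -0.25 to 0.20). Pairs with different numbers were not compared, so this check cannot show whether the replicate numbers pair the samples. With the replicate number as a block, knockdown called 5 probe sets with R5020 and 20 with EtOH, no call of a member changed, and that of ALDH18A1 in siCHD8 cells was lost (limma adjusted p = 0.0537).

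Signs turned only for members and list genes that had not passed. With quantile normalization the R5020 change in siCHD8 cells was -0.0019 for ASS1 and -0.0084 for ENOPH1, and the knockdown change with R5020 was 0.085 for SRM and 0.065 for OAZ2. With array weights the knockdown change was -0.0072 for SMS with R5020 and -0.044 for OAZ1 with EtOH. Without the vehicle arrays siCt 3 and siCHD8 1 the R5020 change in siCHD8 cells was 0.00023 for OAZ1 and 0.073 for ARG2, and the knockdown change with EtOH was -0.10 for AZIN1 and -0.22 for OAZ1. Leaving out single arrays gave R5020 changes in siCHD8 cells of -0.086 to 0.00023 for OAZ1, -0.031 to 0.16 for OAZ2, -0.21 to 0.073 for ARG2 and -0.087 to 0.12 for ENOPH1, and in siCt cells of -0.38 to 0.039 for OAZ2 and -0.061 to 0.13 for ARG2. The difference of responses ran over -0.23 to 0.0040 for SMS and -0.24 to 0.037 for ARG2. Knockdown changes ran with R5020 over -0.043 to 0.054 for SRM, -0.086 to 0.11 for SMS and -0.068 to 0.026 for OAZ2, and with EtOH over -0.023 to 0.24 for AZIN1, -0.17 to 0.38 for OAZ1 and -0.17 to 0.10 for ARG2.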
